A study of Mus musculus with 16 samples.

Results

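Collagen and laminin chains were taken as the 54 genes, of 27807 in the table, whose names follow the pattern of a collagen alpha chain (43 genes, such as Col4a1) or of a laminin alpha, beta or gamma chain (11 genes, such as Lama1). They were followed in mouse embryonic stem cells (ES), which grew on inactivated embryonic fibroblast feeders with LIF and serum, and in embryoid bodies, the floating aggregates in which such cells differentiate into neurons after retinoic acid. Polyadenylated RNA was sequenced at ES and in embryoid bodies before retinoic acid (EB4), after the first day of it (EB5) and later in the treatment (EB8). At each of these stages the labels give a pair of libraries as wild-type (WT, Taf4+/+) and a pair as KO (Taf4-/-, homozygous for an inactivated Taf4a, which encodes a subunit of the general transcription factor TFIID), so that 16 libraries formed 8 groups of 2. The study derived 2 independent lines of each genotype from blastocysts of heterozygous crosses, but the labels do not tie a library to a line, and p-values measure the spread between these libraries only.

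Collagens are triple helices of 3 alpha chains. Type IV collagen forms the network of basement membranes, the thin sheets under epithelia, whereas fibrillar collagens form the fibres of connective tissue and cartilage. Laminins are trimers of an alpha, a beta and a gamma chain that polymerize into a separate sheet of the basement membrane and bind integrins and dystroglycan on cells. In the peri-implantation embryo both are known as products of the primitive and parietal endoderm, and laminin is among the earliest matrix proteins made.

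Values are normalised read counts, in which a size factor for each library has been divided out. Levels of different genes are compared per kilobase (kb) of exon, except in sums of counts and shares of such sums. Differences are log2 changes of the normalised count + 1 with their standard error (SE), tested with limma over all 16 libraries. Every adjusted p is a Benjamini-Hochberg value over the 16124 genes whose mean reached 10 normalised counts. A gene was called where its adjusted p was below 0.05. Of the 54 chains, 47 had that mean, 36 collagens and 11 laminins. The other 7 (Col4a3, Col4a4, Col6a6, Col9a1, Col10a1, Col19a1 and Col28a1) were not tested and did not exceed 20.2 normalised counts in any library.

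The libraries held 22442118 to 40711826 reads in genes, and every ES library was deeper than every embryoid body library, so that, between ES and EB4, depth and stage cannot be told apart. Taf4a had 1590.9 to 1959.6 normalised counts in the 8 WT and 1972.8 to 2400 in the 8 KO libraries, and lay higher in KO at each stage. A count per gene does not resolve the inactivated part of the gene, so that this does not check the labels, and WT and KO are used as labelled. Genes of chromosome 8 stood at a median log2 deviation of 0.352 to 0.371 in the embryoid body libraries of WT replicate 1 and at -0.168 to 0.079 in the other 13. Genes of the X chromosome stood at 0.248 to 0.537 in WT ES replicate 2 and in KO replicate 2 at all 4 stages, and below 0 in the other 11. In WT these chromosome levels thus differed between ES and EB4, beside depth and stage. ES cell markers were called higher in KO for 6 of 8 genes at EB8, against 10.4% of all tested genes. Neural progenitor markers were called lower for 5 of 7, against 12.5%. The part of both in the EB8 results was not tested. In these bulk samples fewer cells of a type and less RNA per cell cannot be told apart.

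The 6 type IV chains lie in 3 head-to-head pairs. Col4a1 (ENSMUSG00000031502, chromosome 8, 11198423 to 11312826, minus strand) and Col4a2 (ENSMUSG00000031503, 11312805 to 11449287, plus strand), which encode the chains of the most widespread type IV trimer, share 22 bases at their 5′ ends in the GENCODE M1 annotation of build NCBI37, or 0.3% of the exon length of each. The ends of Col4a4 and Col4a3 on chromosome 1 lie 71 bases apart and those of Col4a6 and Col4a5 on the X chromosome 1308 bases apart. The start windows of Col4a1 and Col4a2 are shown because these were the chains called lower in KO at all 3 embryoid body stages. Each has 250 bases before the start of the gene and 50 from it, as RefSeq gives them for build GRCm38.p6, and was identical at the same coordinates of NCBI37. The windows overlap by 78 bases. Capitals mark matches in the 250 bases before the start to the CCAAT box (CCAAT, or ATTGG on the other strand) and to GGGCGG (or CCGCCC on the other strand).
Col4a1, chr8:11312777-11313076, minus strand: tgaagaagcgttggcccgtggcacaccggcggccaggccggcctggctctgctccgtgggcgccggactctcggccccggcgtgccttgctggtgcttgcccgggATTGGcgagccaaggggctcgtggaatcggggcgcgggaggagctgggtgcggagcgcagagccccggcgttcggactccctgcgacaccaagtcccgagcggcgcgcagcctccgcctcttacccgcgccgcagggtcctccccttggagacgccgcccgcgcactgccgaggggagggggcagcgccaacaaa
Col4a2, chr8:11312555-11312854, plus strand: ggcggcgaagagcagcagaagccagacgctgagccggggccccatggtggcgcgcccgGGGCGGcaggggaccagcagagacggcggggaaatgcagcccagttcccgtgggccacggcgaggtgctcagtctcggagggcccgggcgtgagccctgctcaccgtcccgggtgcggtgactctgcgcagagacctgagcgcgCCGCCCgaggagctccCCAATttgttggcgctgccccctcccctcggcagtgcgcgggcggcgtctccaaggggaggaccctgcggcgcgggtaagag
CCAAT was found 145 bases before the Col4a1 start and 32 bases before the Col4a2 start, and GGGCGG lay 192 and 48 bases before the Col4a2 start. Neither gene had a match to TATAAA in these 250 bases. The 50 bases from each start were not searched, so that matches there are not marked. G and C made up 74.0% and 73.7% of the windows, against a median of 52.7% over all windows. Of the 54 chains 40 had a RefSeq window. CCAAT was present in 14 of them (35.0%), GGGCGG in 23 (57.5%) and TATAAA in 5 (12.5%), against 37.5%, 35.4% and 14.3% of the windows of all 27025 genes. These are matches of letters only.

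Col4a1 and Col4a2 were lower in KO at all 3 embryoid body stages, with the widest margin at EB5. Each pair of values below gives WT replicates 1 and 2 against KO replicates 1 and 2. Col4a1 had 3130.1 and 2390.3 against 1077.5 and 634 at ES, 3278.1 and 4648.4 against 1088.8 and 797.6 at EB4, 6203 and 10331.2 against 1104.5 and 940.6 at EB5, and 15696.1 and 9851.9 against 4188.6 and 5532.9 at EB8. Col4a2 had 1500.9 and 1479.8 against 528.8 and 224.4 at ES, 1376.5 and 2619.6 against 418.2 and 410.9 at EB4, 3741.4 and 5812.4 against 612.5 and 670.1 at EB5, and 12581.4 and 6877.8 against 3193.7 and 3112.6 at EB8. Every KO library lay below every WT library of its stage for both chains. At EB4 the log2 change was -2.07 (SE 0.33, limma adjusted p = 0.00897) for Col4a1, 4.19-fold lower, and -2.19 (SE 0.40, limma adjusted p = 0.0126) for Col4a2, 4.57-fold lower. At EB5 it was -2.97 (SE 0.33, limma adjusted p = 0.00408) and -2.86 (SE 0.40, limma adjusted p = 0.00849), or 7.85-fold and 7.27-fold lower. At EB8 it was -1.37 (SE 0.33, limma adjusted p = 0.0114) and -1.56 (SE 0.40, limma adjusted p = 0.015), or 2.58-fold and 2.95-fold lower. At ES it was -1.73 and -2.11 and did not pass (limma adjusted p = 0.0964 for both).

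Several of these calls were lost when a single library was left out. Without KO replicate 2 of EB4 or of EB5, however, no tested gene was called between the genotypes at that stage. The fit of the compared libraries alone also called 0 of all tested genes at EB4, and 0 for EB4 against ES in WT. A call lost in these fits, here or below, is therefore not particular to its chain. The Col4a1 call at EB4 was lost without KO EB4 replicate 2 (limma adjusted p = 0.11), and was also lost in a fit of the compared libraries alone (highest adjusted p = 0.141). That at EB5 was lost without KO EB5 replicate 2 (limma adjusted p = 0.069). That at EB8 was lost without WT EB8 replicate 1 (limma adjusted p = 0.0998) or KO EB8 replicate 1 (0.0854), and was also lost with chromosome levels subtracted (highest adjusted p = 0.0552). The Col4a2 call at EB4 was lost without WT EB4 replicate 2 (limma adjusted p = 0.0759) or KO EB4 replicate 2 (0.125), and was also lost in a fit of the compared libraries alone (highest adjusted p = 0.141). That at EB5 was lost without WT EB5 replicate 2 (limma adjusted p = 0.0615) or KO EB5 replicate 2 (0.0789). That at EB8 was lost without WT EB8 replicate 1 (limma adjusted p = 0.128), KO EB8 replicate 1 (0.0651) or KO EB8 replicate 2 (0.0655), and was also lost with chromosome levels subtracted (highest adjusted p = 0.053). Both genes lie on chromosome 8, and WT replicate 1, with the raised level of that chromosome, had the higher WT value at EB8 and the lower one at EB4 and EB5.

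Both chains also rose between EB4 and EB8 in each genotype. The log2 rise of Col4a1 was 1.67 in WT (limma adjusted p = 0.00285) and 2.37 in KO (limma adjusted p = 0.000738), and that of Col4a2 was 2.29 in WT (limma adjusted p = 0.00128) and 2.92 in KO (limma adjusted p = 0.000647). These 4 rises passed in each fit without 1 library. In WT the values were higher at EB5 than at EB4, while in KO those of Col4a1 overlapped between EB4 and EB5 and those of Col4a2 were higher at EB5 without overlap. The difference between the genotypes in the rise was 0.70 (SE 0.47, limma adjusted p = 0.516) for Col4a1 and 0.63 (SE 0.57, limma adjusted p = 0.653) for Col4a2 and did not pass.

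Col4a5 and Col4a6, whose chains form a trimer found in fewer basement membranes, rose in both genotypes as well. Col4a5 had 81.9 and 195.3 against 48.1 and 27.9 at ES, 176.5 and 241.3 against 111 and 85.5 at EB4, 613.5 and 880.7 against 508.2 and 190.1 at EB5, and 1424 and 1755.4 against 1381.1 and 1311.3 at EB8. Col4a6 had 22.8 and 26.3 against 7.5 and 5 at ES, 95.3 and 83.6 against 43.2 and 8.9 at EB4, 421.6 and 623.7 against 234.2 and 65 at EB5, and 366.5 and 417.2 against 410.4 and 284.4 at EB8. The KO values lay below the WT values at ES, EB4 and EB5 for both genes, while at EB8 those of Col4a6 overlapped. No KO against WT change of either gene passed. At EB8 the log2 change was -0.23 (SE 0.48, limma adjusted p = 0.77) for Col4a5 and -0.19 (SE 0.67, limma adjusted p = 0.867) for Col4a6, and at EB4 it was -1.07 (SE 0.48, limma adjusted p = 0.209) and -2.11 (SE 0.67, limma adjusted p = 0.0816). From EB4 to EB8 Col4a5 rose by 2.93 on the log2 scale in WT and 3.77 in KO (limma adjusted p = 0.000889 and 0.00041), and Col4a6 by 2.12 and 4.03 (limma adjusted p = 0.0328 and 0.00205). The rise of Col4a6 in KO was 5.11 without KO EB4 replicate 1 and 2.95 without KO EB4 replicate 2. The Col4a6 call in WT was lost in each of the 4 fits without 1 library (limma adjusted p from 0.0934 to 0.137), and was also lost with no filter on low counts, after quantile normalisation and with chromosome levels subtracted (highest adjusted p = 0.0951). Both genes lie on the X chromosome, whose genes stood higher in KO replicate 2. Both had their lower KO value in that replicate at each stage, and the part of the chromosome level in these values was not tested. Col4a3 and Col4a4, whose chains are known from the mature kidney glomerulus, had at most 11.8 and 20.2 normalised counts.

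**Figure D1:**
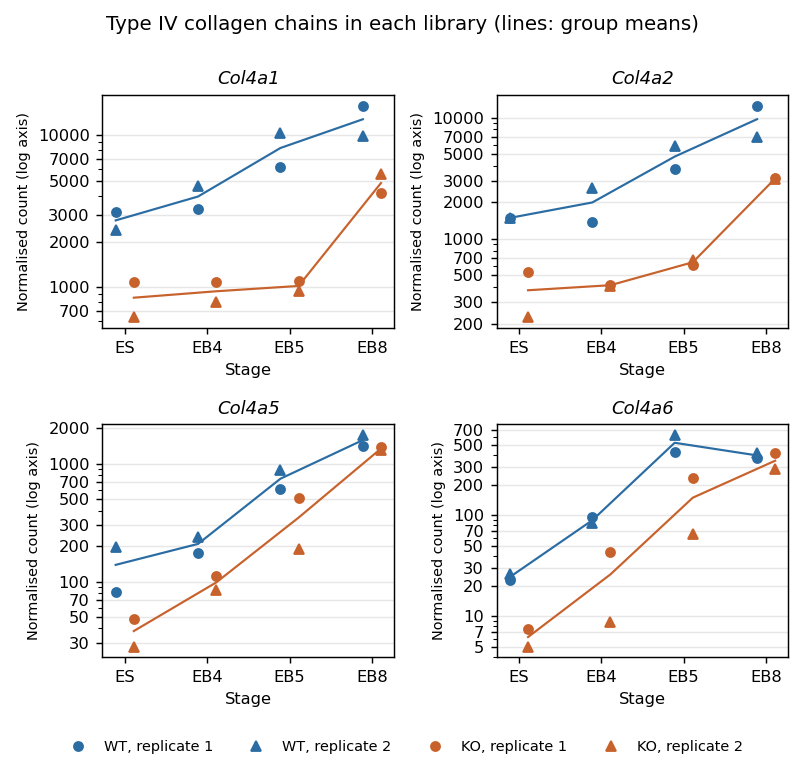
Normalised counts (log axis) of the 4 tested type IV chains by stage in each library, with WT in blue and KO in orange, circles for replicate 1, triangles for replicate 2 and lines through the group means. Col4a1 and Col4a2 lie lower in KO at every stage, whereas Col4a5 and Col4a6 come close at EB8, where Col4a5 has 1424 and 1755.4 in WT and 1381.1 and 1311.3 in KO.

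The laminin alpha chains went different ways. Lama1, the alpha chain of the earliest embryonic laminin (laminin-111), had 1768.5 and 849.1 against 2811.7 and 2192 at ES, 502 and 1587 against 521 and 413.5 at EB4, 1765.3 and 3699.6 against 817.3 and 434.4 at EB5, and 4793.8 and 4946.6 against 835.6 and 1017.3 at EB8. KO was thus the higher genotype at ES and the lower one at EB5 and EB8, with overlap at EB4. The log2 change was 1.02 (SE 0.52, limma adjusted p = 0.487) at ES, -0.94 (SE 0.52, limma adjusted p = 0.309) at EB4, -2.10 (SE 0.52, limma adjusted p = 0.0417) at EB5 and -2.40 (SE 0.52, limma adjusted p = 0.00612) at EB8, the last a 5.28-fold lower level. The EB8 call held in each of the 4 fits without 1 library (limma adjusted p at most 0.0442). The EB5 call was lost without WT EB5 replicate 1 (limma adjusted p = 0.0554), WT EB5 replicate 2 (0.263) or KO EB5 replicate 2 (0.398), and was also lost with no filter on low counts and in a fit of the compared libraries alone (highest adjusted p = 0.0854). In KO Lama1 fell between ES and EB4 by 2.42 on the log2 scale (limma adjusted p = 0.0302), and this call was lost in each of the 4 fits without 1 library (limma adjusted p from 0.119 to 0.152), and was also lost with no filter on low counts and in a fit of the compared libraries alone (highest adjusted p = 0.0566). Between EB4 and EB8 it rose in WT by 2.45 (limma adjusted p = 0.00414), and this call was lost without WT EB4 replicate 1 (limma adjusted p = 0.0506). The rise was 1.62 without WT EB4 replicate 1 and 3.28 without WT EB4 replicate 2. In KO the change was 0.99 (SE 0.52, limma adjusted p = 0.209), and the difference between the genotypes, -1.46 (SE 0.73, limma adjusted p = 0.352), did not pass.

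Lama3, the alpha chain of the laminin of epithelial anchoring structures (laminin-332), fell in WT and was higher in KO from EB5. It had 463.3 and 710.4 against 379.4 and 493.9 at ES, 54.8 and 74 against 149.5 and 395.6 at EB4, 35.8 and 24.2 against 123.3 and 288 at EB5, and 13.7 and 8.5 against 67.5 and 171.5 at EB8. The KO libraries lay above the WT libraries at all 3 embryoid body stages and overlapped with them at ES. Its log2 change was -0.41 (SE 0.58, limma adjusted p = 0.846) at ES, 1.92 (SE 0.58, limma adjusted p = 0.0703) at EB4, 2.64 (SE 0.58, limma adjusted p = 0.0288) at EB5 and 3.21 (SE 0.58, limma adjusted p = 0.00223) at EB8, the last a 9.23-fold higher level. The EB8 call held in each of the 4 fits without 1 library (limma adjusted p at most 0.0253), with a change of 3.87 without KO EB8 replicate 1 and 2.54 without KO EB8 replicate 2. The EB5 call was lost without WT EB5 replicate 1 (limma adjusted p = 0.0701), WT EB5 replicate 2 (0.171) or KO EB5 replicate 2 (0.33), and was also lost in a fit of the compared libraries alone (highest adjusted p = 0.0848). The change was 3.25 without KO EB5 replicate 1 and 2.03 without KO EB5 replicate 2. In WT Lama3 fell between ES and EB4 by 3.15 on the log2 scale (limma adjusted p = 0.00476), and this call held in each of the 4 fits without 1 library (limma adjusted p at most 0.0314) but was lost in a fit of the compared libraries alone (highest adjusted p = 0.063). It fell again between EB4 and EB8 by 2.46 (limma adjusted p = 0.00783), and this call was lost without WT EB8 replicate 2 (limma adjusted p = 0.0658).

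Lama5, the alpha chain of laminins of many later basement membranes (laminin-511 and laminin-521), had 12418.3 and 11787.9 against 7117.7 and 10965.2 at ES, 14938.1 and 15961.1 against 9714 and 8131.6 at EB4, 13694.3 and 12312.2 against 9609 and 10424.1 at EB5, and 5927.9 and 7358.5 against 10715.2 and 9081.2 at EB8. The KO values lay below the WT values up to EB5 and above them at EB8. On the log2 scale the change was -0.45 (SE 0.19, limma adjusted p = 0.404) at ES, -0.80 (SE 0.19, limma adjusted p = 0.0354) at EB4, -0.38 (SE 0.19, limma adjusted p = 0.3) at EB5 and 0.58 (SE 0.19, limma adjusted p = 0.0499) at EB8. The EB4 call was lost in each of the 4 fits without 1 library (limma adjusted p from 0.0531 to 0.286), and was also lost with no filter on low counts, after quantile normalisation and in a fit of the compared libraries alone (highest adjusted p = 0.151). The EB8 call was lost in each of the 4 fits without 1 library (limma adjusted p from 0.0675 to 0.265), and was also lost with no filter on low counts, in a fit of the compared libraries alone and in edgeR (highest adjusted p = 0.077). It was lost as well with the replicate number as a block, as labelled (limma adjusted p = 0.0509) or with the KO numbers exchanged (0.0538). The fall in WT between EB4 and EB8, -1.23 (SE 0.19, limma adjusted p = 0.000694), held in each of the 4 fits without 1 library (limma adjusted p at most 0.00967), and the KO change was 0.15 (SE 0.19, limma adjusted p = 0.638). The difference between them was 1.38 (SE 0.28, limma adjusted p = 0.0227), and this call held in 3 of the 8 fits without 1 library (limma adjusted p from 0.0413 to 0.0855).

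Lamc1, the gamma chain shared by laminins 111, 511 and 521, also fell in WT from EB4 to EB8. It had 13571.5 and 12088.4 against 12497 and 12563.3 at ES, 10849 and 12255.3 against 9632.2 and 9744.6 at EB4, 10875 and 10209.3 against 9031.6 and 8995.7 at EB5, and 6514.9 and 6223.5 against 8982.8 and 9670.3 at EB8. The KO libraries lay above the WT libraries at EB8, where the log2 change was 0.55 (SE 0.12, limma adjusted p = 0.00658), a 1.46-fold higher level. This call was lost without WT EB8 replicate 2 (limma adjusted p = 0.0511). At ES, EB4 and EB5 the changes were -0.03, -0.25 and -0.23 and did not pass (limma adjusted p = 0.955, 0.238 and 0.315). Lamc1 fell in WT between EB4 and EB8 by 0.86 on the log2 scale (limma adjusted p = 0.000277), and the KO change was -0.06 (SE 0.12, limma adjusted p = 0.787). The difference was 0.80 (SE 0.17, limma adjusted p = 0.0273), and this call held in 1 of the 8 fits without 1 library (limma adjusted p from 0.0374 to 0.111), and was also lost in a fit of the compared libraries alone (highest adjusted p = 0.0844).

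Of the beta chains, Lamb1, the partner of Lamc1 in laminins 111 and 511, fell in WT. It had 6976.4 and 6462 against 4235.4 and 2961.8 at ES, 6534.2 and 8024 against 5265.3 and 3779.9 at EB4, 8627 and 8063.6 against 6119 and 4581.8 at EB5, and 4906.1 and 4199.1 against 6470.7 and 5821.5 at EB8. The groups did not overlap at any stage, with KO the lower genotype up to EB5 and the higher one at EB8, but no KO against WT change passed. The log2 change was -0.70 (SE 0.21, limma adjusted p = 0.0741) at EB4 and 0.44 (SE 0.21, limma adjusted p = 0.167) at EB8. The fall in WT from EB4 to EB8 was -0.67 (SE 0.21, limma adjusted p = 0.0349), and this call was lost in each of the 4 fits without 1 library (limma adjusted p from 0.0561 to 0.188), and was also lost with no filter on low counts, after quantile normalisation and in a fit of the compared libraries alone (highest adjusted p = 0.0617). In KO the change was 0.46 (SE 0.21, limma adjusted p = 0.159), and the difference between the genotypes, 1.13 (SE 0.30, limma adjusted p = 0.0726), did not pass. Lamb2, the beta chain of laminin-521, which is known from neuromuscular and kidney basement membranes, instead rose. It had 898.3 and 936 against 980.4 and 885.5 at ES, 1011.6 and 1600.9 against 723.1 and 772.1 at EB4, 1924.3 and 1560.4 against 1108.3 and 1182 at EB5, and 2292.4 and 2260.5 against 2004.6 and 1772.6 at EB8. It was lower in KO at EB4, -0.77 (SE 0.20, limma adjusted p = 0.046), and this call was lost without WT EB4 replicate 2 (limma adjusted p = 0.247), KO EB4 replicate 1 (0.129) or KO EB4 replicate 2 (0.231), and was also lost with no filter on low counts, after quantile normalisation and in a fit of the compared libraries alone (highest adjusted p = 0.247). It rose between EB4 and EB8 by 0.84 in WT and 1.33 in KO (limma adjusted p = 0.00897 and 0.00124). The call in WT was lost without WT EB4 replicate 1 (limma adjusted p = 0.102), and was also lost in a fit of the compared libraries alone (highest adjusted p = 0.0768).

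**Figure D2:**
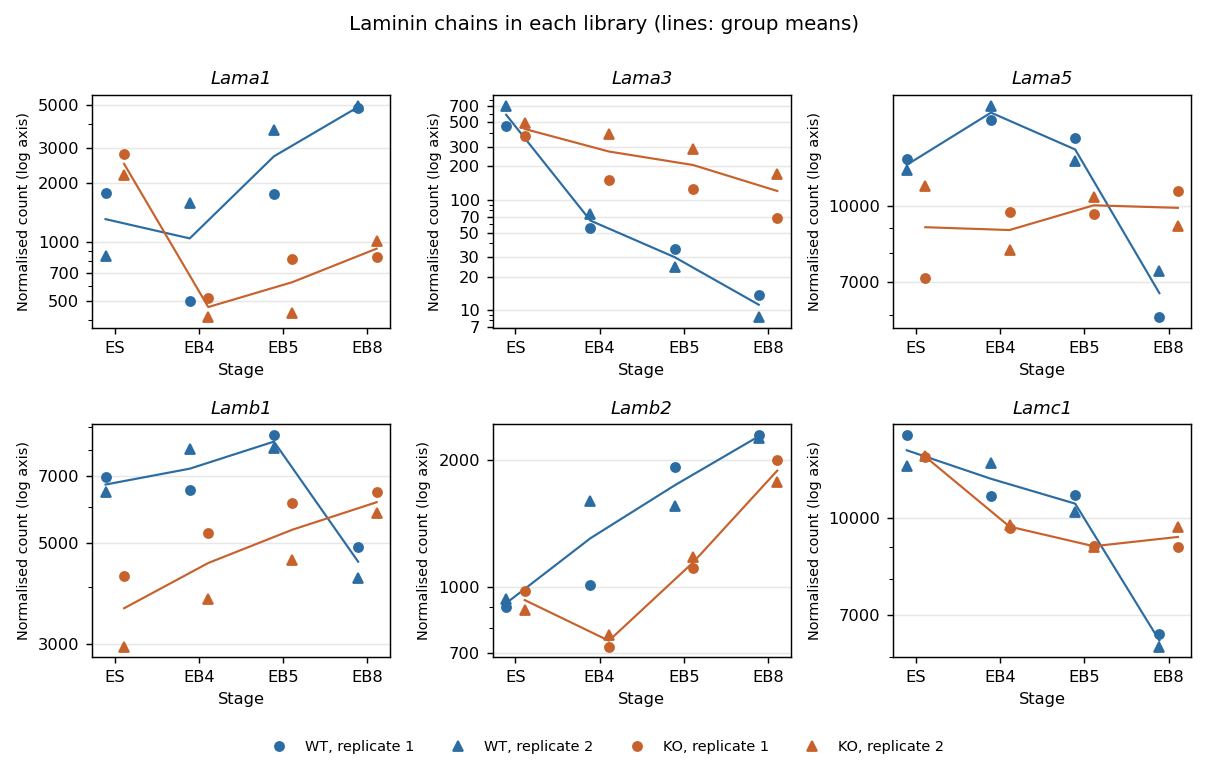
Normalised counts (log axes, each with its own range) of 6 laminin chains by stage in each library, with WT in blue and KO in orange, circles for replicate 1, triangles for replicate 2 and lines through the group means. Lama5, Lamb1 and Lamc1 fall in WT at EB8 and end below KO, Lama1 ends at 4793.8 and 4946.6 in WT against 835.6 and 1017.3 in KO, and Lama3 ends higher in KO.

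Col18a1, a proteoglycan collagen of basement membranes whose end fragment is endostatin, had the highest mean level per kb of all chains in each of the 8 groups. It had 17409.7 and 29989.1 against 16124 and 18876.3 at ES, 13041 and 10407.7 against 15110.1 and 15917.3 at EB4, 17143.9 and 17896.2 against 22038.6 and 15114.4 at EB5, and 20619 and 15428.5 against 22792.6 and 17806.6 at EB8. The genotypes overlapped at ES, EB5 and EB8, and no KO against WT change passed. Its log2 change was -0.39 (SE 0.26, limma adjusted p = 0.618) at ES, 0.41 (SE 0.26, limma adjusted p = 0.377) at EB4, 0.06 (SE 0.26, limma adjusted p = 0.924) at EB5 and 0.18 (SE 0.26, limma adjusted p = 0.669) at EB8. In WT it fell between ES and EB4 by 0.97 on the log2 scale (limma adjusted p = 0.0252), and this call was lost without WT ES replicate 2 (limma adjusted p = 0.164) or WT EB4 replicate 2 (0.137), and was also lost in a fit of the compared libraries alone (highest adjusted p = 0.18).

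The order of the levels per kb changed between the stages. In WT ES it ran from Col18a1 (3375.5 ± 1266.9 normalised counts per kb, SD, n = 2) to Lamc1 (1551 ± 126.8), Lama5 (1061.3 ± 39.1), Lamb1 (677.5 ± 36.7) and Col9a2 (519.2 ± 620.3), of which Lamb1 and Col9a2 did not differ beyond their SD. In WT EB8 it ran from Col18a1 (2567.1 ± 522.8) to Col4a1 (1873.6 ± 606.1), Col4a2 (1470 ± 609.3), Col2a1 (1047 ± 43.3) and Lamc1 (770 ± 24.9), where only Col2a1 and Lamc1 differed from each other beyond their SD among neighbours. In KO EB8 the order was Col18a1 (2891.3 ± 502.2), Lamc1 (1127.5 ± 58.8), Lama5 (868 ± 101.3), Col4a1 (712.9 ± 139.4) and Lamb1 (619.8 ± 46.3). Of these, Lama5 and Col4a1 did not differ beyond their SD, and neither did Col4a1 and Lamb1. Col18a1, Lama5, Lamb1 and Lamc1 together made up 70.5% to 80% of the summed normalised counts of the 54 chains in the WT ES and EB4 libraries and 41% and 42.8% in those of WT EB8. In KO EB8 they made up 69.2% and 62.4%. These shares were not divided by exon length.

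Among the fibrillar chains, Col27a1, a chain of developing cartilage, was lower in KO at EB5 and EB8. It had 172.9 and 159.5 against 34.9 and 44.3 at ES, 81.1 and 90.1 against 30.4 and 52.3 at EB4, 231.5 and 339.3 against 97.7 and 82.4 at EB5, and 691 and 609.9 against 76 and 115 at EB8. The KO values were lower at every stage with no overlap. The log2 change was -2.05 (SE 0.35, limma adjusted p = 0.0634) at ES, -1.08 (SE 0.35, limma adjusted p = 0.0909) at EB4, -1.63 (SE 0.35, limma adjusted p = 0.0276) at EB5 and -2.78 (SE 0.35, limma adjusted p = 0.000292) at EB8, the last a 6.88-fold lower level. The EB8 call held in each of the 4 fits without 1 library (limma adjusted p at most 0.00423). The EB5 call was lost in each of the 4 fits without 1 library (limma adjusted p from 0.054 to 0.278), and was also lost in a fit of the compared libraries alone (highest adjusted p = 0.0875). Its rise from EB4 to EB8 was 2.91 in WT and 1.21 in KO (limma adjusted p = 0.000104 and 0.0334), and the KO call was lost without KO EB4 replicate 1 (limma adjusted p = 0.219) or KO EB8 replicate 2 (0.196), and was also lost after quantile normalisation and in a fit of the compared libraries alone (highest adjusted p = 0.17).

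Col5a1, a chain of type V collagen, which regulates the width of type I fibrils, was lower in KO at EB4 and EB5. It had 1196.9 and 1571.4 against 453.3 and 335.9 at ES, 934.9 and 962.9 against 356.3 and 298.6 at EB4, 2128.5 and 1060.8 against 535.7 and 488.7 at EB5, and 1686.5 and 1285.4 against 1145.8 and 1042.9 at EB8. The groups did not overlap at any stage. The log2 change was -1.81 (SE 0.29, limma adjusted p = 0.0521) at ES, -1.54 (SE 0.29, limma adjusted p = 0.0147) at EB4, -1.55 (SE 0.29, limma adjusted p = 0.0167) at EB5 and -0.43 (SE 0.29, limma adjusted p = 0.318) at EB8. The EB4 call was lost without WT EB4 replicate 1 (limma adjusted p = 0.0573), WT EB4 replicate 2 (0.0619) or KO EB4 replicate 2 (0.146), and was also lost in a fit of the compared libraries alone (highest adjusted p = 0.141). The EB5 call was lost without WT EB5 replicate 1 (limma adjusted p = 0.0796) or KO EB5 replicate 2 (0.208), and was also lost in a fit of the compared libraries alone (highest adjusted p = 0.0899). Its change from EB4 to EB8 passed in KO, 1.74 (SE 0.29, limma adjusted p = 0.00225), and was 0.63 (SE 0.29, limma adjusted p = 0.13) in WT.

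Col2a1, the main collagen of cartilage, which the notochord also makes, rose in both genotypes. It had 628 and 717.6 against 391 and 271.6 at ES, 615.9 and 1980.5 against 386.7 and 396.9 at EB4, 5001.4 and 9053 against 4895 and 2749.1 at EB5, and 6498.1 and 6129.2 against 2548 and 2341.4 at EB8. The step between EB4 and EB5 was the steepest in both. The rise from EB4 to EB8 was 2.51 in WT and 2.64 in KO (limma adjusted p = 0.00149 and 0.00245). The WT rise passed in each fit without 1 library but was 1.67 without WT EB4 replicate 1 and 3.35 without WT EB4 replicate 2. At EB8 Col2a1 was lower in KO, -1.37 (SE 0.45, limma adjusted p = 0.0452), and this call was lost in each of the 4 fits without 1 library (limma adjusted p from 0.125 to 0.154), and was also lost with no filter on low counts and after upper-quartile rescaling (highest adjusted p = 0.069).

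Among the FACIT collagens, which attach to the surface of fibrils, Col12a1 was lower in KO at EB5. It had 168.4 and 112.4 against 30.7 and 57.2 at ES, 20.8 and 154.4 against 30.4 and 34.5 at EB4, 718 and 2164.4 against 115.7 and 104.7 at EB5, and 1642.4 and 3715.2 against 601.4 and 778.7 at EB8. The EB5 change was -3.49 (SE 0.77, limma adjusted p = 0.0287), an 11.2-fold lower level, and this call was lost without WT EB5 replicate 2 (limma adjusted p = 0.205), KO EB5 replicate 1 (0.0745) or KO EB5 replicate 2 (0.249), and was also lost in a fit of the compared libraries alone (highest adjusted p = 0.0631). The change was -4.29 without WT EB5 replicate 1 and -2.69 without WT EB5 replicate 2. At EB8 the KO libraries again lay below the WT libraries, with a change of -1.85 (SE 0.77, limma adjusted p = 0.102). Col12a1 rose between EB4 and EB8 by 5.41 in WT and 4.36 in KO (limma adjusted p = 0.000294 and 0.00285). The WT rise passed in each fit without 1 library but was 3.99 without WT EB4 replicate 1, 6.82 without WT EB4 replicate 2, 6.00 without WT EB8 replicate 1 and 4.82 without WT EB8 replicate 2. Col9a2, a chain of the cartilage collagen IX, stood out for the spread between its WT ES libraries. It had 249.4 and 2964.3 against 588.6 and 655.4 at ES, 356.2 and 413.9 against 299.1 and 501.5 at EB4, 782 and 504 against 1721.7 and 3220.3 at EB5, and 238.4 and 173.6 against 1003.4 and 577.4 at EB8. The KO libraries lay above the WT libraries at EB5 and EB8, where the changes were 1.91 (SE 0.81, limma adjusted p = 0.202) and 1.90 (SE 0.81, limma adjusted p = 0.11) and did not pass.

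Col7a1, the anchoring fibril collagen of skin, had 682.6 and 404.2 against 322.9 and 319.5 at ES, 350.7 and 339.9 against 178.7 and 126.3 at EB4, 315.2 and 287.7 against 284.4 and 266.7 at EB5, and 226.8 and 193.8 against 336.6 and 282.3 at EB8. The KO libraries lay below the WT libraries up to EB5 and above them at EB8, but only the EB4 change passed. The EB4 change was -1.19 (SE 0.28, limma adjusted p = 0.0298), and this call was lost without WT EB4 replicate 1 (limma adjusted p = 0.103), WT EB4 replicate 2 (0.0965) or KO EB4 replicate 2 (0.266), and was also lost after quantile normalisation and in a fit of the compared libraries alone (highest adjusted p = 0.182). The EB8 change was 0.55 (SE 0.28, limma adjusted p = 0.172). The change from EB4 to EB8 was -0.72 (SE 0.28, limma adjusted p = 0.074) in WT and 1.03 (SE 0.28, limma adjusted p = 0.023) in KO, and the KO call was lost without KO EB4 replicate 2 (limma adjusted p = 0.163), KO EB8 replicate 1 (0.127) or KO EB8 replicate 2 (0.0596), and was also lost after quantile normalisation and in a fit of the compared libraries alone (highest adjusted p = 0.103). The difference between the genotypes was 1.75 (SE 0.39, limma adjusted p = 0.0348), and this call held in 1 of the 8 fits without 1 library (limma adjusted p from 0.0486 to 0.132), and was also lost in a fit of the compared libraries alone (highest adjusted p = 0.0823).

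Col6a5, a chain of collagen VI, which forms beaded filaments, had 157.5 and 76.5 against 29.9 and 65 at ES, 35.1 and 2.1 against 25.7 and 76.6 at EB4, 57.4 and 8.8 against 166.9 and 200.7 at EB5, and 2.1 and 0 against 24.3 and 46.9 at EB8. At EB8 it was called higher in KO (limma adjusted p = 0.0157), on 2 reads in both WT libraries together and 67 in both KO libraries. The ratio from these reads was 33.7 (exact 95% interval 8.97 to 284, which covers counting error only). The call was lost without WT EB8 replicate 2 (limma adjusted p = 0.117) or KO EB8 replicate 2 (0.0912).

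**Figure D3:**
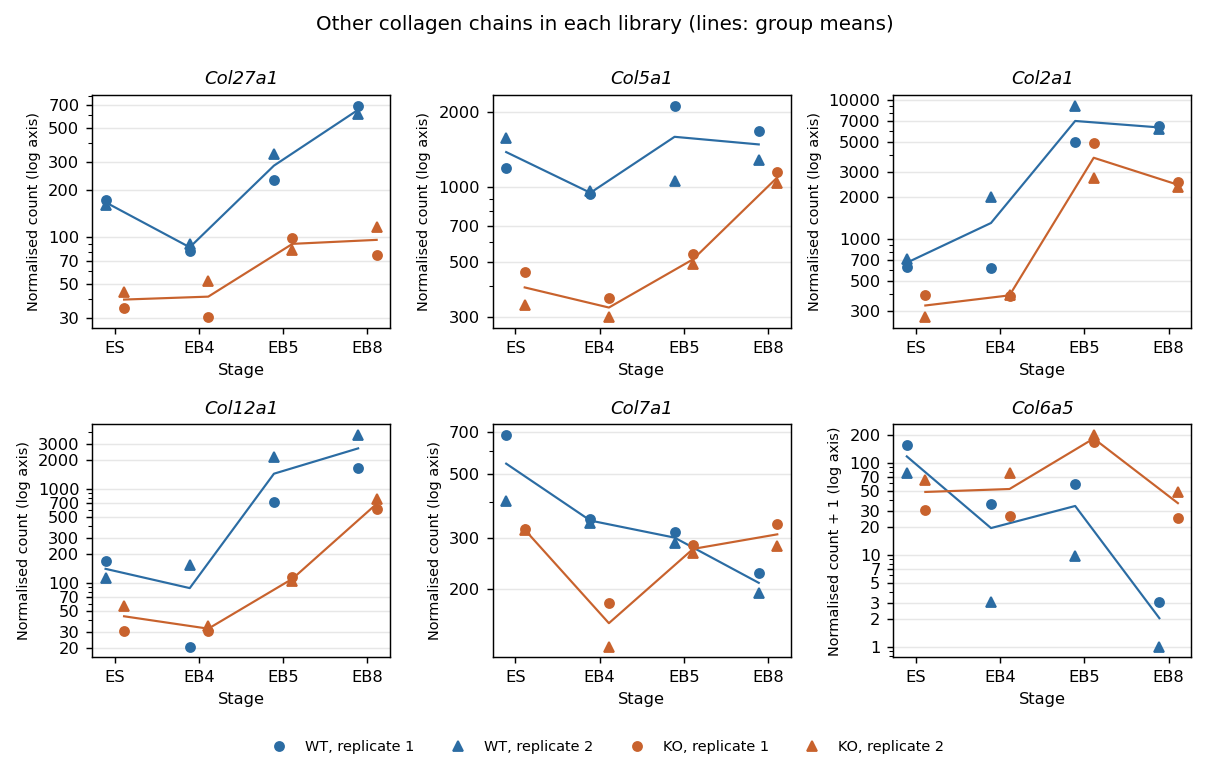
Normalised counts (log axes, each with its own range, with 1 added for Col6a5) of 6 other collagen chains by stage in each library, with WT in blue and KO in orange, circles for replicate 1, triangles for replicate 2 and lines through the group means. Col27a1 lies lower in KO at every stage and ends at 76 and 115 against 691 and 609.9, Col2a1 and Col12a1 rise in both genotypes, and Col6a5 is nearly at 0 in WT EB8.

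Over the tested chains, the calls at EB4 and EB5 were mostly lower in KO, while those at EB8 went both ways. At ES 0 of 47 were called in limma, where 0% of all tested genes were called higher and 0% lower. At an unadjusted p below 0.05 the count was 22 of 47, against 11.4% of all genes. Of the chains edgeR called 0 and DESeq2 11, all lower in KO. Over all 16124 tested genes edgeR called 0, and DESeq2 called 104 higher and 372 lower. In 30 of 47 chains every KO library lay below every WT library at ES, an arrangement found in 20.7% of all tested genes, and the median log2 change of the chains was -1.05 against 0 over all genes. At EB4 6 of 47 were lower (12.8%, against 3.37% of all tested genes) and 0 higher (against 2.75%, with 0 in edgeR and 1 in DESeq2). At EB5 6 were lower (12.8%, against 2.17%) and 1 higher, Lama3 (2.1%, against 2.17%). At EB8 5 were lower (10.6%, against 12.5%) and 4 higher (8.5%, against 10.4%), both near the background. This split at EB8 was 4 lower and 6 higher after upper-quartile rescaling, 5 and 5 after quantile normalisation and 4 and 5 with chromosome levels subtracted. The median change of the chains was -0.92 at EB4, -0.38 at EB5 and -0.04 at EB8, and that of the 11 laminins alone went from -0.45 at ES to 0.55 at EB8. Of the 13 chains called in any KO against WT comparison, only Col4a1 and Col4a2 were called lower at all 3 embryoid body stages in limma.

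**Figure D4:**
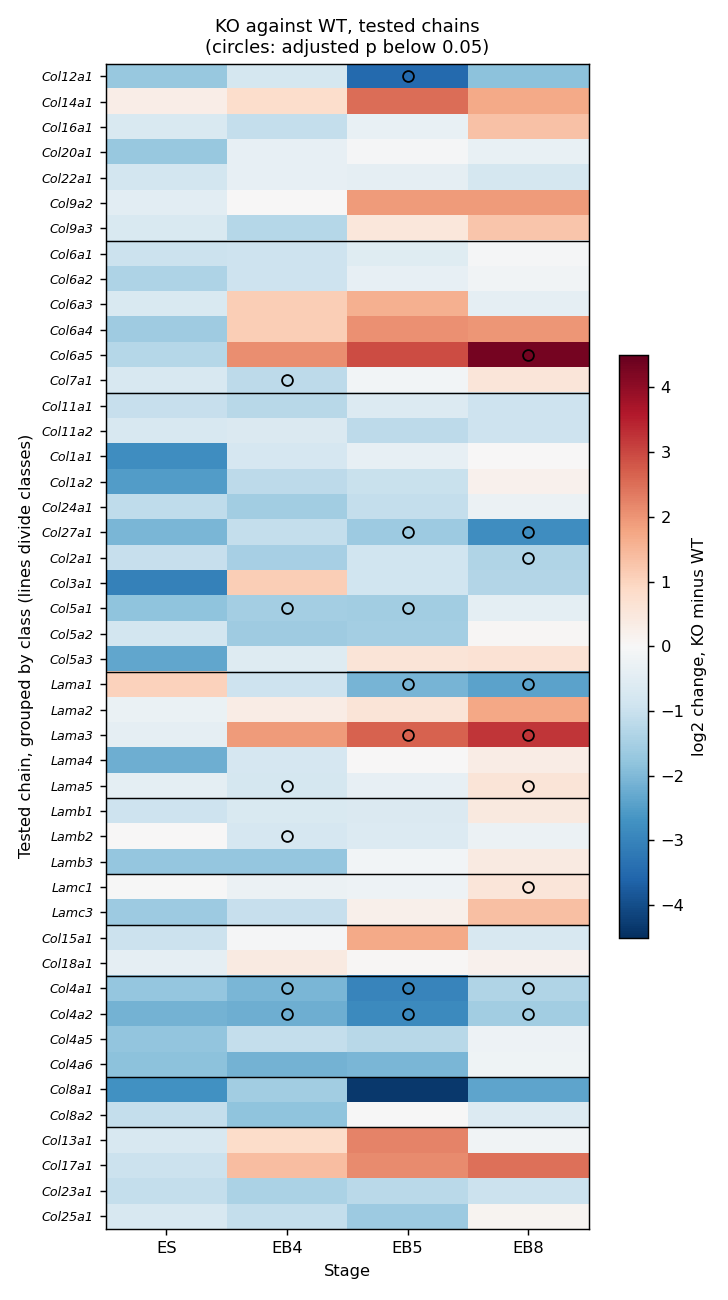
Log2 change of KO against WT (colour, blue for lower in KO) of 46 tested chains at each stage, with black circles at adjusted p below 0.05 and lines between the structural classes. Most cells at ES are blue, with 43 of 46 changes below 0, and the circles of Col4a1 and Col4a2 run from EB4 to EB8.

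More chains changed between EB4 and EB8 than in any other comparison. Collagens made up most of those that rose, and also 36 of the 47 tested chains. In WT 17 of 47 chains rose (36.2%, against 15% of all tested genes) and 5 fell (10.6%, against 12.2%). Those that rose were 15 of the 36 collagens (41.7%) and 2 of the 11 laminins (18.2%). In KO 21 rose (44.7%, against 9.86%), 19 of the collagens (52.8%) and 2 of the laminins (18.2%). There 0 fell (against 8.67%), a count of 0 also in edgeR and DESeq2 and at an unadjusted p below 0.05. The chains that rose in both genotypes numbered 15, namely Col2a1, Col3a1, Col4a1, Col4a2, Col4a5, Col4a6, Col11a1, Col11a2, Col12a1, Col15a1, Col22a1, Col23a1, Col25a1, Col27a1 and Lamb2. Col11a1, a fibrillar chain of cartilage, rose by 3.30 in WT and 3.62 in KO (limma adjusted p = 0.000129 and 0.000186), and Col3a1, the fibrillar chain of distensible tissues, by 6.01 and 3.57 (limma adjusted p = 0.000476 and 0.0182). The Col3a1 rise in WT was 5.15 without WT EB4 replicate 1 and 6.87 without WT EB4 replicate 2, and passed in both. Its KO call was lost without KO EB4 replicate 1 (limma adjusted p = 0.101), KO EB4 replicate 2 (0.0549) or KO EB8 replicate 2 (0.158), and was also lost in a fit of the compared libraries alone (highest adjusted p = 0.076), and the rise was 4.98 without KO EB8 replicate 1 and 2.16 without KO EB8 replicate 2. Of the rises called, 10 of 17 in WT and 11 of 21 in KO were called in every fit without 1 library. Col13a1 and Lama1 passed in WT but not in KO, and Col1a2, Col5a1, Col7a1, Col16a1, Col24a1 and Lama4 in KO but not in WT. The 5 that fell in WT were Lama3, Lama5, Lamb1, Lamc1 and Col9a3.

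The difference between the genotypes in the change from EB4 to EB8 was itself tested as an interaction. It was called for 3 chains with the higher change in KO, Lama5, Lamc1 and Col7a1 (6.4%, against 1.04% of all genes), and for 0 with the lower change (against 1.71%, with 0 in edgeR and 1 in DESeq2). At an unadjusted p below 0.05 the count was 11 of 47, against 16.5% of all genes. From ES to EB4 1 chain rose in WT, Col23a1 (against 8.98% of all genes), and 2 fell, Lama3 and Col18a1 (against 7.57%). In KO 1 rose, Col6a2 (against 2.51%), and 1 fell, Lama1 (against 0.992%).

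**Figure D5:**
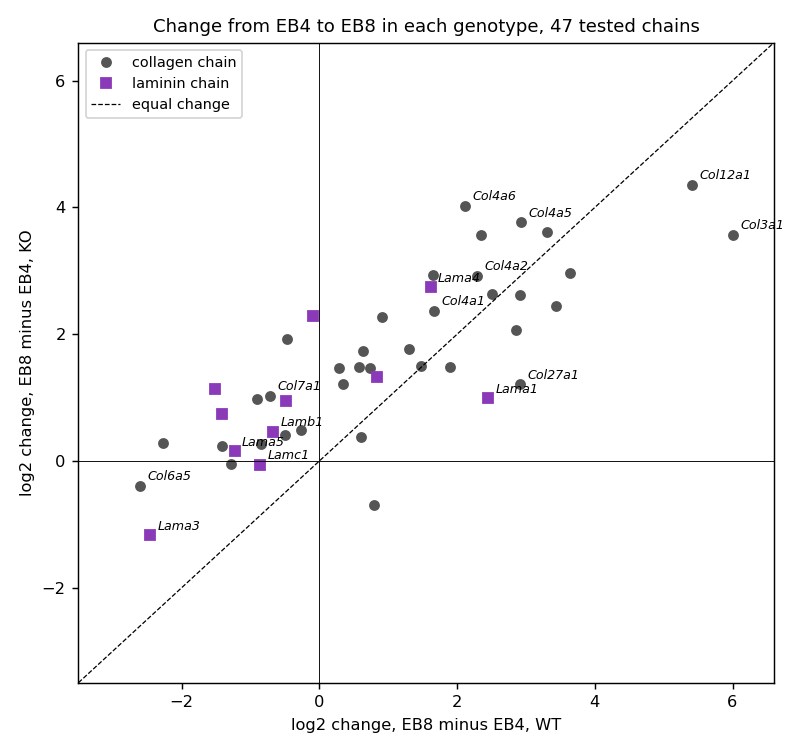
Log2 change from EB4 to EB8 in WT (horizontal axis) and in KO (vertical axis) of the 47 tested chains, with collagens as grey circles, laminins as purple squares and a dashed line of equal change. Lama5, Lamc1 and Col7a1 lie left of the vertical line at 0 and above the dashed line, whereas Col4a1, at 1.67 and 2.37, lies with most collagens in the upper right.

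Because the ES cells grew on fibroblasts, fibroblast markers were read beside the fibrillar chains. Of 16 listed markers 13 were tested, and 0 were called at ES or EB4, 1 was lower in KO at EB5 (Prrx2) and 1 at EB8 (Acta2). The shares of all tested genes called lower were 2.17% at EB5 and 12.5% at EB8. Their summed level was 5274.8 to 12983.5 normalised counts in the WT ES libraries and 1212.9 to 5386 in the KO ES libraries, 4493.5 to 6779.1 against 1426.7 to 2176.4 at EB4, 4040 to 5161.3 against 2595.8 to 2872.7 at EB5, and 3799.9 to 4102.8 against 2399.2 to 3713.4 at EB8. Tagln, which smooth muscle also expresses, made up 434.5 to 11039.4 of the sums at ES. Without it they were 1944.1 to 2361.6 in WT against 602.7 to 778.3 in KO at ES, 1772.5 to 1795.2 against 655.4 to 705.7 at EB4, 2865.3 to 2979.2 against 1545.4 to 1551.5 at EB5, and 2937.2 to 3345.7 against 2054.2 to 3358.7 at EB8, where the genotypes then overlapped. Fap was at 0 in both WT ES libraries. Col1a1 and Col3a1, fibrillar chains of connective tissue that were named after their values were seen, also lay lower in every KO library at ES. Col1a1 had 661.7 and 1451.1 against 118.7 and 170.1 (-2.78 (SE 0.64, limma adjusted p = 0.125)), and Col3a1 had 56.4 and 134.7 against 8.3 and 11.4 (-3.04 (SE 0.91, limma adjusted p = 0.207)), and neither passed. Genes of chromosome 11, which holds Col1a1, stood higher in KO replicate 1. The part of the feeders in these values was not tested.

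Of 15 listed markers of extraembryonic endoderm, 12 were tested. Of these 3 were lower in KO at EB4 (Dab2, Cubn and Plat), 4 at EB5 (Srgn, Cubn, Plat and Foxa2) and 2 at EB8 (Sox17 and Foxa2). Of all tested genes 3.37%, 2.17% and 12.5% were called lower at these stages, so that the EB8 count was near the background. Without Sparc, which many cells express, the summed level of the listed markers was 654.6 to 871 in WT against 288.1 to 466.7 in KO at ES, 1329.4 to 2010.6 against 477.3 to 822.4 at EB4, 3568.2 to 4881.2 against 1334.3 to 2339 at EB5, and 3784.1 to 4908.2 against 2650.3 to 4334.5 at EB8. Apoa1 was at 0 in both KO EB4 libraries and Ttr in both KO libraries at ES and at EB5. The part of this cell type in the lower Col4a1, Col4a2 and Lama1 was not tested. Of 8 endothelial markers 1 was higher and 1 lower in KO at EB4 and 2 were higher at EB8. Of all tested genes 2.75% were called higher at EB4 and 10.4% at EB8. The sum of the endothelial markers without Pecam1, which ES cells also express, was 993.1 to 1041.7 in WT EB8 against 846.2 to 2534.2 in KO EB8. Of 7 epithelial markers 1 was called, Cldn4, higher in KO at EB8. All 5 tested neuronal markers were lower in KO at EB8.

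Of 76 listed genes that modify, bind or cleave collagens and laminins, 67 were in the table and 65 were tested. KO against WT called 0 of 65 at ES in limma and edgeR and 10 in DESeq2, 1 higher and 5 lower at EB4, 0 higher and 1 lower at EB5, which was the collagen receptor Itga2, and 10 higher and 4 lower at EB8. The shares of all tested genes called higher and lower were 2.75% and 3.37% at EB4, 2.17% and 2.17% at EB5 and 10.4% and 12.5% at EB8. Of 17 genes of collagen modification and folding, 2 were higher at EB8, Plod1, a lysyl hydroxylase (1.03, limma adjusted p = 0.00803), and Crtap of the prolyl 3-hydroxylation complex (0.81, limma adjusted p = 0.0366). Of 12 of processing and crosslinking, Adamts14, a procollagen N-propeptidase, was higher at EB4 and EB8 (2.45 and 2.52, limma adjusted p = 0.0412 and 0.0127).

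Of 15 partners in the basement membrane, the nidogens Nid1 and Nid2, which link laminin to type IV collagen, were higher at EB8 (1.41 and 1.29, limma adjusted p = 0.00651 and 0.0219), and Ntn4 and Frem1 were lower (-2.71 and -3.18, limma adjusted p = 0.00929 and 0.00945). Nid1 had 1158.3 and 1399.7 against 3094.5 and 3684.7 normalised counts at EB8. At EB4 Pxdn, which crosslinks type IV collagen, and Hspg2, which encodes perlecan, were lower (-1.35 and -0.87, limma adjusted p = 0.0476 and 0.037). Of 14 receptors, the laminin receptor chains Itga7 and Itga6 were higher at EB8 (2.86 and 0.78, limma adjusted p = 0.00121 and 0.00334), and so was Dag1, which encodes dystroglycan (0.67, limma adjusted p = 0.00563), while the collagen receptor Ddr1 was lower (-1.37, limma adjusted p = 0.0137). Of 7 proteases and inhibitors, Mmp9 and Timp1 were higher at EB8 (2.51 and 2.34, limma adjusted p = 0.00908 and 0.0265) and Timp2 was lower (-1.12, limma adjusted p = 0.0127). Timp1 lies on the X chromosome.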

How the data were processed

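Total RNA of 16 libraries was made into unstranded polyadenylated mRNA libraries and sequenced single-end. Per the labels and the submitters' processing notes, the authors used CASAVA 1.7 and 1.8, TopHat2 2.0.10 (mouse build NCBI37), HTSeq 0.5.4p3 and DESeq2 1.0.19. The annotation release and the strand setting of the counting are not given in the sources used here, so that reads of overlapping genes cannot be told apart. The deposited values are normalised counts per gene, the signal left after the authors divided read counts by a size factor. They were whole multiples of a step of 0.715 to 1.276 in each library, and 100% of the values gave whole reads within 0.01. These reads gave 22442118 to 40711826 per library, and counting error limits the low genes.

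The log2(normalised count + 1) of the 16124 genes with a mean of at least 10 was fitted as 8 group means with limma 3.58.1 (R 4.3.3, intensity trend, 8 residual degrees of freedom), and 11683 genes were left out. Adjusted p-values are Benjamini-Hochberg values with a threshold of 0.05, and all tests were two-sided. The fold changes understate those of low genes. KO was compared with WT at each stage, EB4 with ES and EB8 with EB4 in each genotype, and the last change between genotypes as an interaction.

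Alternatives were a pseudocount of 5, no filter, upper-quartile and quantile scaling, the compared groups alone, the replicate number as a block, leaving out each library, and the recovered reads in edgeR 4.0.16 and DESeq2 1.42.0. In edgeR, KO against WT called 0 genes at ES, 363 higher and 448 lower at EB4, 298 and 305 at EB5 and 1622 and 1924 at EB8. Exchanged KO replicate numbers, subtracted chromosome levels and the marker sums without Sparc, Tagln or Pecam1 were added after seeing the data. A fit without a library assumes that the lone library of its group varies like the others. The fits were tested on simulated data.

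The members and the gene lists were chosen with earlier results of these data known. Values in every library were given for chains called in a KO against WT comparison and for the tested type IV chains. They were also given for chains among the 5 highest per kb at a stage in WT. Not every log2 change of these chains was given. Of partner genes, up to 2 rises and 2 falls per role at EB8 were given. Col1a1, Col3a1, Col11a1, Adamts14 at EB4, Itga2, Pxdn, Hspg2 and Dag1 were named after their values were seen. The values of 1 tested chain are not reported here singly. Protein sequences were not analysed here. Start windows came from RefSeq (GRCm38.p6) and gene coordinates from GENCODE M1. Python 3.11.15, pandas 2.3.3, numpy 2.4.6 and matplotlib 3.10.9 were used.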

Additional observations from a re-analysis of the deposited data

Results flagged for a closer look

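The change from EB4 to EB8 differed between the genotypes in a direct test for 3 chains. It was higher in KO by 1.38 (SE 0.28, limma adjusted p = 0.0227) for Lama5, by 0.80 (SE 0.17, limma adjusted p = 0.0273) for Lamc1 and by 1.75 (SE 0.39, limma adjusted p = 0.0348) for Col7a1, on the log2 scale. Each of these 3 calls was lost in most of the fits without 1 library. Those of Lamc1 and Col7a1 were also lost in a fit of the compared libraries alone. Groups of 2 libraries are too small for a test of single outlying libraries.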

How the results depend on the processing

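With 2 libraries a group, many counts of called chains moved with the processing, and so did those of all 16124 tested genes. For KO against WT the main fit called 443 higher and 543 lower of all genes at EB4, 350 and 350 at EB5 and 1677 and 2020 at EB8. DESeq2 called 904 and 1173, 812 and 907, and 2098 and 2528. The compared groups alone called 0 at EB4, 50 and 22 at EB5 and 1266 and 1798 at EB8. For the 47 chains, KO against WT at ES (0 called) gave 1 with a pseudocount of 5, upper-quartile rescaling, the replicate block or chromosome levels subtracted and 11 in DESeq2. At EB4 (6 called) quantile normalisation gave 3, the compared groups alone 0 and DESeq2 16. At EB5 (7 called) the compared groups alone gave 2, and at EB8 (9 called) DESeq2 gave 14. EB4 against ES in WT (3 called) gave 0 with the compared groups alone, 5 with the replicate block, 9 with the block within genotype and 13 in DESeq2, and in KO (2 called) 0 with no filter or the compared groups alone, 1 after quantile normalisation, 4 and 5 with these blocks and 6 in DESeq2. The interaction (3 called) gave 5 after either rescaling, with the block within genotype or with chromosome levels subtracted, 1 with the compared groups alone and 7 in DESeq2. For the partner genes at ES (0 called), rescaling to the upper quartile or the block gave 1 and DESeq2 10, at EB4 (6 called) no filter gave 2, the compared groups alone 0 and DESeq2 15, and at EB5 (1 called) quantile normalisation gave 2, the block with either numbering 3, chromosome levels subtracted 4 and DESeq2 13. Leaving out 1 library gave 0 to 1 chains at ES, 0 to 7 at EB4, 0 to 6 at EB5, 5 to 6 at EB8, 2 to 6 for EB4 against ES in WT and 0 in KO, 16 to 20 for EB8 against EB4 in WT and 12 to 17 in KO, and 0 to 3 in the interaction, and 0, 0 to 6, 0 to 3 and 6 to 12 partner genes at the 4 stages. The EB8 change of Col18a1, not called, turned to -0.0335 without WT EB8 replicate 2 and -0.00238 without KO EB8 replicate 1 (-0.0335 to 0.38 over these fits), and that of Col4a6, not called, to 0.0697 without KO EB8 replicate 2 (-0.46 to 0.0697). A smaller set of samples also left fewer degrees of freedom, and the cause of these moves was not tested.

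The labels tie no replicate number to a line. The deviations of same-numbered WT and KO libraries correlated at 0.335 at ES, -0.058 at EB4, -0.209 at EB5 and -0.133 at EB8 over 16124 genes. Within a genotype they correlated at 0.389 (KO, ES and EB4), 0.523 (WT, EB4 and EB8), 0.373 (KO, EB4 and EB8) and -0.076 (WT, ES and EB4), a hint from the data that a number carried over between stages in 3 of these 4. The EB8 call of Lama5 was lost with the replicate block under either numbering. With the KO numbers exchanged in the block, a pairing chosen after seeing the data, 10 chains were called at EB5 and 8 at EB8. Upper-quartile rescaling moved the median of all genes to 0.111 at EB8.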
